A study of Caenorhabditis elegans with 10 samples.

Results

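Sperm protein genes of Caenorhabditis elegans were followed in animals carrying different alleles of sftb-1, the worm ortholog of the splicing factor gene SF3B1. The genes were taken by symbol: protein-coding genes whose name starts with msp-, ssp-, nspd- or spe-, with transcripts summed per gene and a mean normalized count of at least 10 over the libraries of a table. At L4, the last larval stage, 71 genes met the rule among 15840 genes at that level, namely 29 msp-, 12 ssp-, 9 nspd- and 21 spe- genes. The L4 table also held msp-32 and nspd-8, listed at 0 in every library, and msp-58, with 0 to 2 normalized counts, so 71 of 74 genes with these names were tested. At L2 the rule was met by 15 genes, nspd-7 and 14 spe- genes, among 15011, while spe-10 stayed under the minimum.

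Hermaphrodites of this species make sperm before they switch to oocytes, and sperm formation is under way during the L4 stage. Major sperm protein, encoded by the many near-identical msp- genes, is the cytoskeletal protein of the crawling sperm and also signals to oocytes after release. The ssp- genes encode small sperm-specific proteins with an MSP domain, the nspd- genes encode short nematode-specific peptides, and the spe- genes were named in screens for defective spermatogenesis or sperm function, so they hold enzymes, channels, membrane proteins and transcriptional regulators rather than a protein family.

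The study asked how sftb-1 alleles change the transcriptome, with 2 libraries in each of 5 groups. The L4 groups were homozygous sftb-1[K718E] animals, with replicate 1 carrying the cer3 allele (strain CER218) and replicate 2 the independently made cer7 allele (CER220), and WT siblings recovered from the outcross of each (CER217 and CER221), all grown for 41 h at 20 °C and sequenced after poly-A capture. The L2 groups were N2 WT larvae, cer39 larvae with the substitutions Q552P, R643C and K718E in sftb-1 (CER276), and larvae homozygous for the sftb-1 deletion allele cer6, grown for 23 h at 20 °C and sequenced after removal of ribosomal RNA. The cer6 homozygotes were picked by a sorter as larvae without the red marker of the balanced strain CER191, a selection that let some red larvae through, and N2 larvae were sorted too, whereas cer39 larvae were not, so the cer39 alleles and the absence of sorting cannot be told apart. Each library is of whole animals, in which fewer sperm-forming cells and less RNA per cell cannot be told apart, and p-values measure the spread between the 2 libraries of a group, which at L2 the study describes as biological replicates.

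Reads assigned to the listed transcripts, recovered from the normalized counts, numbered 56996610 to 66563408 per L4 library and 45313448 to 76420128 per L2 library. Sequencing was paired-end, so a read here may stand for a pair. The normalized count of sftb-1 was 14652 and 13787 in the L4 WT siblings and 13710 and 15045 in K718E, and at L2 it was 6152 and 7222 in WT, 7333 and 6706 in cer39 and 3229 and 3580 in cer6, in which it fell by 0.97 on the log2 scale (adjusted p = 0.00592, limma). A codon change does not alter this count, so it checks only the cer6 label. Of 8 male markers, 5 had an L4 mean under the minimum of 10, and cwp-3 was at 0 in all 4 libraries. The 3 tested, cwp-4, cwp-5 and try-5, had positive log2 fold changes in K718E (median 0.24) with 0 past the threshold, and the summed list was at 1.11 and 1.14 of the WT mean in the K718E libraries, above both WT siblings. Its part in the results was not tested.

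At L4 the WT levels of the sperm protein genes are given by class, with no level of other genes beside them. Their summed values made up 0.429% ± 0.00775 (SD, n = 2) of all protein-coding normalized counts in the WT siblings, of which the msp- genes gave 0.324%, the nspd- genes 0.0408%, the ssp- genes 0.0324% and the spe- genes 0.0315%. Per kilobase of annotated exon, the median WT level was 16180 normalized counts for msp- genes, 11872 for nspd- genes, 3383 for ssp- genes and 367 for spe- genes. The lowest nspd- gene, at 2507 per kilobase, stood above the highest spe- gene, spe-39 at 2292. All other pairs of classes overlapped in range, with msp-74 at only 49.2 per kilobase. Most of these gene models hold no untranslated regions, so for msp-, ssp- and nspd- genes the length used is close to the coding length.

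When msp- genes with starts at most 1000000 bp apart were joined, they sat in 3 stretches of WBcel235. A smaller limit could give more, as the stretch on chromosome II held no tested msp- gene between 5200180 and 5797065. One on chromosome II ran from 4785898 to 5810330 and held 12 of them, and 2 on chromosome IV ran from 5055631 to 5316906 with 8 genes and from 9689015 to 10143740 with 9. Of the 29 msp- genes, 21 had another tested sperm protein gene within 20 kb, as did 6 of 9 nspd- and 6 of 12 ssp- genes and 0 of 21 spe- genes. None of the 71 genes lay on X, the chromosome of 14.1% of the tested protein-coding genes. All msp- and nspd- genes and 9 of 12 ssp- genes had a single annotated exon, which made 47 of 71 sperm protein genes (66.2%) against 1.98% of tested protein-coding genes, whereas the spe- genes had 3 to 18 exons.

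**Figure D1:**
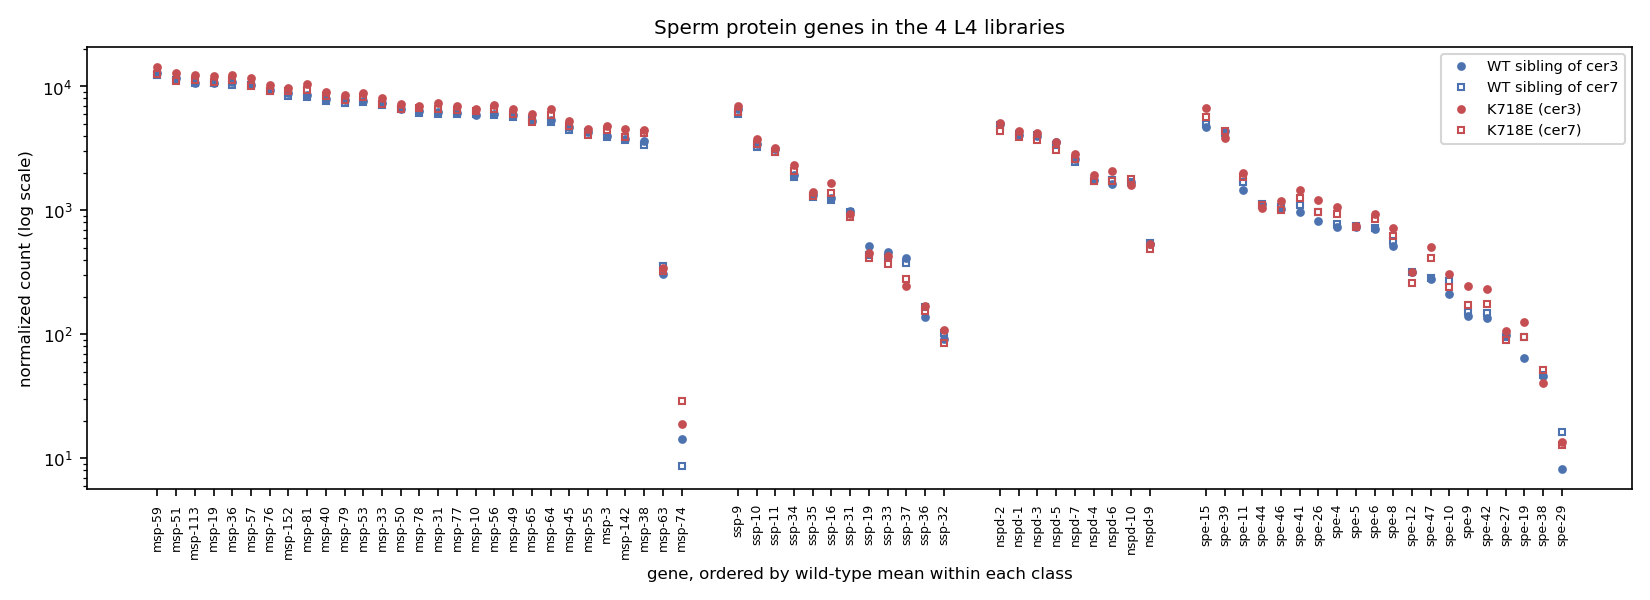
Normalized count (log scale) of 70 of the 71 sperm protein genes in the 4 L4 libraries, ordered by WT mean within each class, with blue for WT siblings, red for K718E, filled circles for the cer3 pair and open squares for the cer7 pair. Most msp- genes lie together between 3508 and 12638 as WT means, and msp-63 and msp-74 stand apart below them.

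Among msp- genes the highest L4 means belonged to msp-59, msp-51 and msp-113, neighbours in the 5055631 to 5316906 stretch of chromosome IV. msp-59 had 12918 and 12358 normalized counts in the WT siblings and 14330 and 12493 in K718E. Its cer7 value lay between those of the WT siblings. Because msp- genes are near-identical copies and RSEM divides reads that match several of them, values of single msp- genes are uncertain, and sums over the class are less so. The lowest were msp-63, with 305 to 357 normalized counts over the 4 libraries, and msp-74, with 14.3 and 8.7 in WT and 19 and 29.2 in K718E, both named after their values were seen.

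The cer3 library stood apart from the other L4 libraries in several gene lists. Relative to the mean of the WT siblings, its summed oocyte markers were at 0.767 and its yolk and adult cuticle markers at 0.722, while the cer7 library was at 0.949 and 1.06 and the WT siblings ranged from 0.944 to 1.06. In the same cer3 library the sums were 1.15 for msp- genes, 1.10 for ssp- genes, 1.06 for nspd- genes and 1.20 for spe- genes. The cer7 library had 1.04, 0.995, 0.947 and 1.10 for these classes. The 13 oocyte markers all had negative log2 fold changes in K718E (median −0.30) and the 11 yolk and adult cuticle markers had a median of −0.16, with 0 of either list past the threshold. The part of this library's stage or tissue make-up in the results below was not tested.

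In K718E no sperm protein gene passed the test, and the class medians of the log2 fold change ranged from −0.00 for nspd- to 0.28 for spe- genes. Genes were tested with limma on the log2 of the normalized count plus 1, and p-values were adjusted by Benjamini and Hochberg's method over 15840 genes, with a threshold of 0.05. Of the 71 sperm protein genes, 0 rose and 0 fell, beside 62 genes (0.391%) that rose and 1 (0.00631%) that fell over all genes tested. At an unadjusted p under 0.05 there were 15 sperm protein genes above WT and 1 below, beside 9.94% and 10.4% of all genes, and the smallest adjusted p was 0.117, for spe-47. edgeR also called 0 with TMM scaling, beside 0.36% of all genes, and 0 with RLE scaling, beside 0.41%, and DESeq2 called 3 upward (msp-38, spe-15 and spe-47), beside 2.94% of all genes.

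The count rested on the libraries. Without the cer7 library 24 of the 71 rose and 1 fell, beside 15.8% and 17% of all genes, with 10 msp-, 2 ssp-, 1 nspd- and 11 spe- genes among those that rose. Without the cer3 library 1 rose (spe-47) and 1 fell (ssp-37), beside 3.5% and 3.3% of all genes. Without one or the other WT sibling 0 rose and 0 fell, beside 0.517% and 1.31% of all genes called. In each of these fits a group was left with 1 library, which was assumed to vary like the other group. With the outcross pair as a replicate block, spe-47 was called (adjusted p = 0.0277, limma), beside 2.92% of all genes upward.

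Most log2 fold changes of the sperm protein genes were above 0 without reaching the threshold. The median log2 fold change was 0.11 over the 71 genes and −0.01 over all genes, and 56 of 71 (78.9%) were above 0 beside 49.2% of all genes. Both K718E libraries exceeded both WT siblings for 35 genes, beside 25.4% of all genes, namely 21 of 29 msp-, 3 of 12 ssp-, 1 of 9 nspd- and 10 of 21 spe- genes. Both lay below both WT siblings for 4 genes, 2 of them ssp- and 2 spe-, beside 28.9% of all genes. These genes share libraries and, for msp-, reads, so they are not independent measurements.

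**Figure D2:**
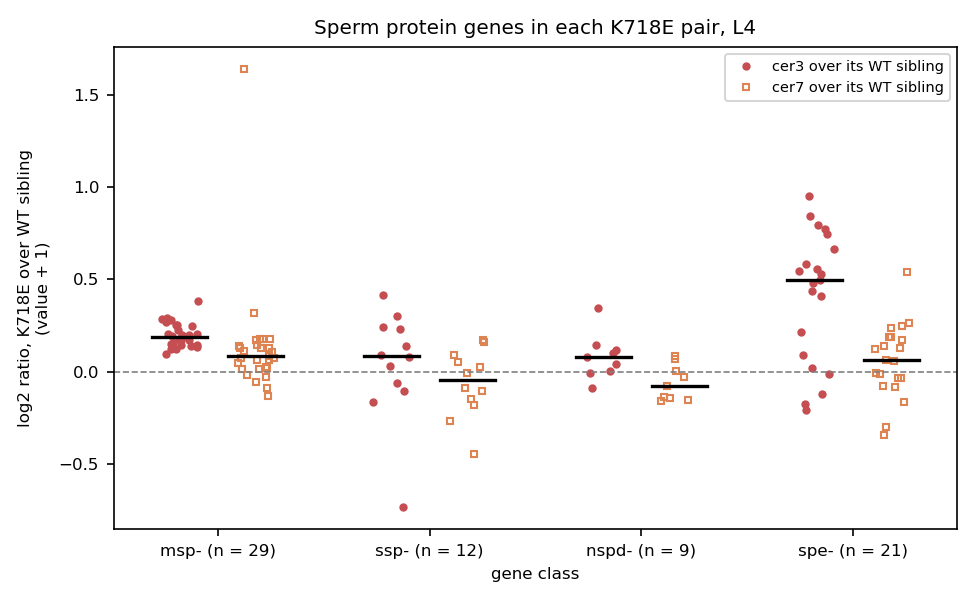
Log2 ratio of K718E over its own WT sibling on the value + 1 scale for each sperm protein gene, by class, with filled circles for cer3, open squares for cer7 and a black bar for the class median. The medians are 0.19 and 0.09 for msp-, 0.09 and −0.05 for ssp-, 0.08 and −0.08 for nspd- and 0.49 and 0.06 for spe- genes, and the cer3 median is the higher in each class.

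The 29 msp- genes all had positive log2 fold changes, between 0.02 and 1.01 with a median of 0.14, a direction that held under the other scalings. Without the cer3 library 22 of 29 stayed positive and the median was 0.08. The summed msp- values were 0.324% ± 0.00487 of protein-coding counts in WT and 0.361% ± 0.0330 in K718E (SD, n = 2 each), and the cer7 library, at 0.338%, stood close to its WT sibling, at 0.327%.

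msp-38, on chromosome IV from 10143357 to 10143740 and named after its values were seen, had 3660.2 and 3355 normalized counts in WT and 4464 and 4181 in K718E. Both mutant libraries were higher, and the log2 fold change was 0.30 (SE 0.0935, adjusted p = 0.153 by limma and 0.0389 by DESeq2). msp-51 had 11687 and 11309 in WT and 12959 and 11164 in K718E, and msp-113 had 10662 and 10757 in WT and 12296 and 11257 in K718E. For msp-51 the cer7 library was the lowest of the 4, and for msp-113 both K718E libraries were above both WT siblings. By stretch, the median log2 fold change was 0.16 on chromosome II and 0.09 and 0.15 on chromosome IV.

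The ssp- genes split in direction, with 7 of 12 above 0 and a median of 0.03, which became −0.03 without the cer3 library. ssp-9, the most abundant of the class, had 6547 and 6022 normalized counts in WT and 6930.0 and 6246 in K718E. ssp-10 had 3435 and 3224 in WT and 3789 and 3436 in K718E, and ssp-11 had 3138 and 2953 in WT and 3208 and 2936 in K718E. For ssp-9 and ssp-11 the groups overlapped, and for ssp-10 the cer7 library lay less than 1 normalized count above the higher WT sibling.

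ssp-37, on chromosome I from 12561040 to 12561560 with 2 exons and named after its values were seen, lay lower in K718E. It had 410.4 and 380.1 normalized counts in WT and 246 and 279 in K718E. The groups did not overlap, and the log2 fold change was −0.59 (SE 0.151, adjusted p = 0.131, limma). The adjusted p was 0.0393 without the cer3 library, 0.000587 without the cer7 library, and 0.269 and 0.779 without one or the other WT sibling.

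The nspd- genes stayed near WT, with a median log2 fold change of −0.00, 4 of 9 above 0 and a range of −0.07 to 0.16. The sign of this median turned with scaling, to 0.01 in DESeq2 and edgeR with RLE, and 0.02 in edgeR with TMM and after scaling without sperm genes. nspd-2 had 4943 and 4896 normalized counts in WT and 5095 and 4388 in K718E, nspd-1 had 4078 and 4143 in WT and 4376 and 3930 in K718E, and nspd-3 had 3993 and 4079.7 in WT and 4221 and 3698 in K718E. In all 3 the cer3 library was the highest of the 4 and the cer7 library the lowest.

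The spe- genes had the largest class median, 0.28, with 16 of 21 above 0, beside 49.2% of all genes. At an unadjusted p under 0.05 (limma), 8 of the 21 were above WT, beside 9.94% of all genes. The median was 0.39 without the cer7 library and 0.19 without the cer3 library. The 24 sperm protein genes with 2 or more exons, 21 of them spe- genes, had a median of 0.23 and the 47 with 1 exon a median of 0.11, while the medians of all tested protein-coding genes were −0.01 and −0.03. No spe- gene had a single exon and no msp- or nspd- gene had more. The ssp- class alone held both kinds, and its 3 genes with 2 exons, ssp-32, ssp-36 and ssp-37, were at −0.02, 0.10 and −0.59.

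**Figure D3:**
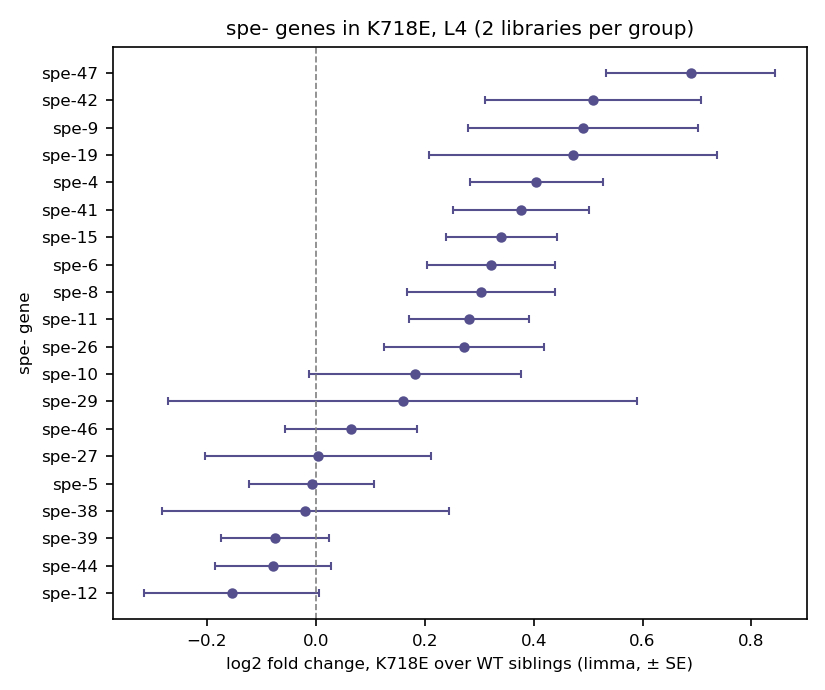
Log2 fold change of 20 of the 21 spe- genes in K718E over WT siblings at L4, as limma estimates (points) with their standard errors (bars), ordered by size. spe-47 is the highest at 0.69 and spe-12 the lowest at −0.15, and 15 of 20 points lie to the right of 0.

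spe-47, an MSP-domain protein gene on chromosome I from 2617529 to 2620430 and named after its values were seen, had the largest log2 fold change of the spe- genes. It had 280.4 and 283 normalized counts in WT and 503 and 411 in K718E. Both K718E libraries were above both WT siblings, which lay within 3 normalized counts of each other, and the log2 fold change was 0.69 (SE 0.155, adjusted p = 0.117 by limma and 0.0151 by DESeq2). The log2 fold change was 0.83 without the cer7 library (adjusted p = 1.42e-05, limma) and 0.54 without the cer3 library (0.0281).

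Genes that act while spermatids form include genes of the fibrous body-membranous organelle complex, which packs MSP. spe-4, a presenilin, had 732 and 775 normalized counts in WT and 1069 and 931 in K718E (log2 fold change 0.40, SE 0.122, adjusted p = 0.149, limma). spe-15, the myosin VI gene, had 4722 and 4959 in WT and 6651 and 5646 in K718E (log2 fold change 0.34, SE 0.102, adjusted p = 0.149 by limma and 0.0338 by DESeq2). In both genes the cer3 library was the highest and the cer7 library lay between it and the WT siblings.

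spe-6, a casein kinase I gene, had 710.3 and 725 normalized counts in WT and 943 and 854 in K718E. Of the other genes of this group, spe-10, a palmitoyltransferase gene, had 213 and 270.1 in WT and 308 and 241 in K718E, and spe-26, a kelch-repeat gene, had 827 and 977 in WT and 1218 and 968 in K718E. The groups did not overlap for spe-6 and overlapped for spe-10 and spe-26. spe-5, a subunit of the vacuolar proton pump, and spe-39, a vesicle trafficking gene, lay at log2 fold changes of −0.01 and −0.08, with spe-5 turning to between 0.00 and 0.01 under the 4 alternatives of scaling or count test.

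The genes that act in sperm activation, spe-8, spe-12, spe-19, spe-27 and spe-29, gave different values. spe-8, a tyrosine kinase gene, had 520 and 568 normalized counts in WT and 727 and 620 in K718E, without overlap. spe-12 had 320.4 and 321 in WT and 318 and 261 in K718E, with both K718E libraries lower. spe-19 had 64.5 and 95.8 in WT and 126 and 95.5 in K718E, spe-27 lay between 90.6 and 106 in all 4 libraries and spe-29 between 8.2 and 16.3, near the minimum for testing.

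Among genes needed by sperm at fertilization, spe-41, a TRPC channel also known as trp-3, had 970.3 and 1111 normalized counts in WT and 1454 and 1250.5 in K718E (log2 fold change 0.38, SE 0.125, adjusted p = 0.168, limma). spe-42, a membrane protein gene, had 136 and 149 in WT and 233 and 177 in K718E, and spe-9, which encodes a membrane protein with EGF repeats, had 140.2 and 151 in WT and 244 and 172 in K718E. In all 3 both K718E libraries were above both WT siblings, as for 25.4% of all genes, and cer3 was the highest. spe-38, a 4-pass membrane protein gene, stayed between 40.6 and 51.7 in all libraries.

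spe-11, whose protein enters the egg with the sperm and acts in the embryo, had 1469 and 1691 normalized counts in WT and 1986 and 1848 in K718E (log2 fold change 0.28, SE 0.111, adjusted p = 0.213, limma). spe-44, a transcription factor that acts early in the sperm programme, had 1134 and 1129 in WT and 1043 and 1102 in K718E, both below the WT siblings (log2 fold change −0.08, adjusted p = 0.699, limma). spe-46 had 1009.7 to 1194 over the 4 libraries and was named after its values were seen.

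Sperm genes that the rule did not take also lay mostly above 0. Another 8 genes with a spe- symbol today carry an older name in the L4 table, and 7 of the 8 had a positive log2 fold change. They included spe-18, listed as F32A11.3 and known to act in MSP assembly, with 3257 and 3288 normalized counts in WT and 5160.5 and 4029 in K718E (log2 fold change 0.48, SE 0.122, adjusted p = 0.131, limma), named after its values were seen. Of 22 other sperm genes tested, from ssq-, msd- and spch- genes to sperm phosphatases and Argonautes, 21 had a positive log2 fold change, with a median of 0.22 and 0 past the threshold. The smallest adjusted p belonged to fer-1, a ferlin gene of membranous organelle fusion, with 679 and 783 in WT and 1556 and 1212 in K718E (log2 fold change 0.91, SE 0.147, adjusted p = 0.0543, limma). The Argonaute genes alg-3 and alg-4, which act in sperm-forming cells, followed at log2 fold changes of 0.48 and 0.50, and the sperm chromatin gene spch-1 at 0.41.

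Regulators of the sperm or oocyte fate lay the other way, with 3 of 21 above 0, a median of −0.08 and 0 past the threshold. fem-3, which promotes the sperm fate, had 3258 and 3236 normalized counts in WT and 2271 and 2791 in K718E, and mog-2, which acts in the switch to oocytes, had 3783 and 3644 in WT and 3039 and 3236 in K718E. fog-3, which is needed for sperm fate, had 70.6 and 83.9 in WT and 102 and 134.5 in K718E. Germ line markers had a median of −0.09, with 4 of 17 above 0.

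**Figure D4:**
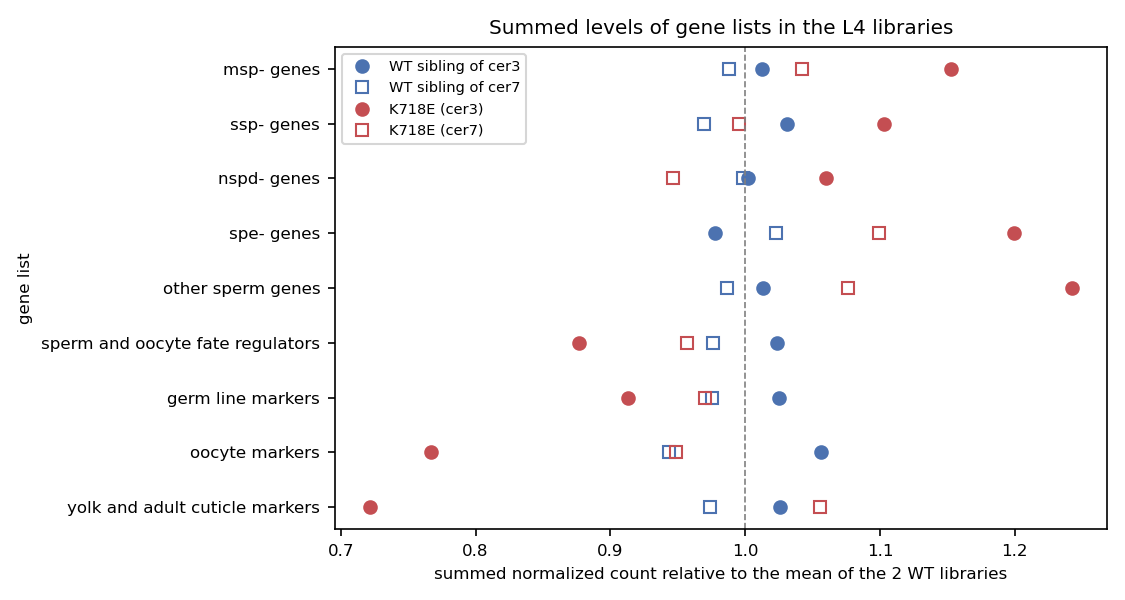
Summed normalized count of each sperm gene class and of 5 other gene lists in the 4 L4 libraries, relative to the mean of the 2 WT libraries (dashed line at 1), with blue for WT, red for K718E, filled circles for the cer3 pair and open squares for the cer7 pair. The cer3 library is highest for the sperm lists (1.06 to 1.24) and lowest for oocyte (0.767) and yolk and adult cuticle markers (0.722).

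At L2, before sperm form, the 16 genes of these names in the table made up 0.00776% ± 2.44e-05 (SD, n = 2) of protein-coding counts in WT. They made up 0.00779% ± 4.00e-05 in cer39 and 0.00789% ± 0.000239 in cer6, so the shares of the 3 groups lay within the spread of cer6. No msp- or ssp- gene was listed in the L2 table, whose lowest gene mean was 2.32, so levels below that were not seen. The L2 and L4 tables were normalized separately and came from different kits, and no test was made between them.

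The levels at L2 fell into a few high genes and many low ones. spe-48 had 916 to 1075 normalized counts over the 6 libraries, spe-39 had 699.8 to 1079, spe-15 had 506 to 728 and spe-5 had 103 to 151. Every other gene had a WT mean of at most 75.5, so a few reads moved its value. Per kilobase of exon, the WT level was 742.5 for spe-48, 551.5 for spe-39, 171 for spe-15 and 75.9 for spe-5, each above the next by more than the WT libraries differed. In the L4 table spe-48 is listed as Y51F10.10, with 1688 and 1713 in WT and 1643 and 1801 in K718E.

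**Figure D5:**
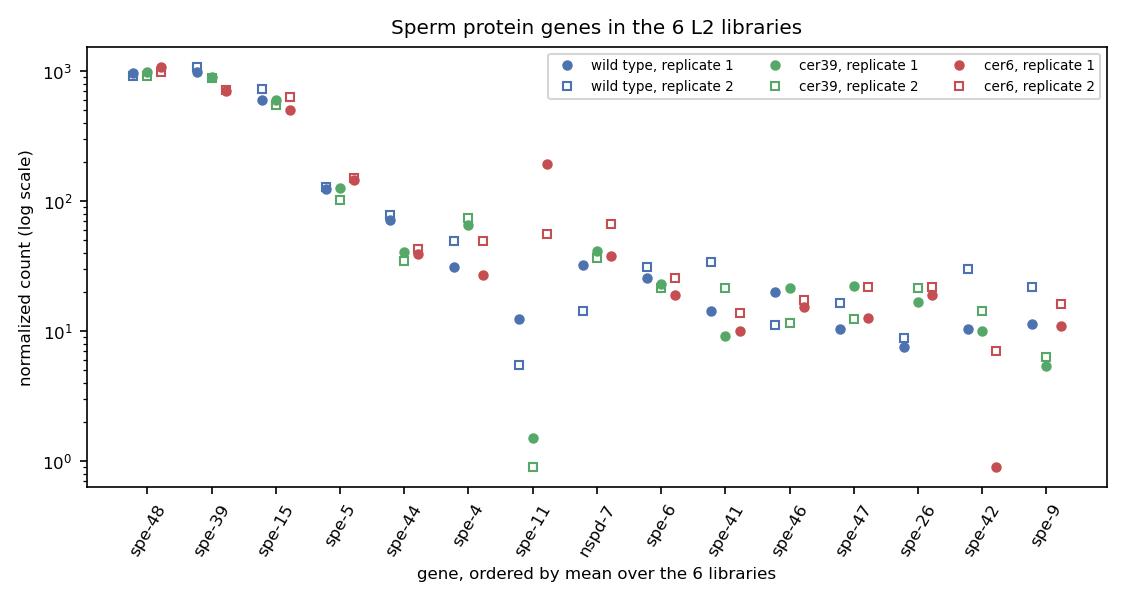
Normalized count (log scale) of the 15 sperm protein genes tested at L2 in the 6 libraries, ordered by mean, with blue for WT, green for cer39 and red for cer6, filled circles for replicate 1 and open squares for replicate 2. spe-11 spans from 0.9 in a cer39 library to 193 in a cer6 library, and spe-44 is lower in both mutants.

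In cer39 no sperm protein gene passed the test. By limma in a single fit of the 6 L2 libraries, 0 of 15 rose and 0 fell, beside 618 genes (4.12%) that rose and 456 (3.04%) that fell over all 15011 genes. At an unadjusted p under 0.05, 1 was above WT and 3 below, beside 15.4% and 13.8% of all genes, and edgeR called 0 with TMM and with RLE scaling, beside 7.33% and 6.91%. The median log2 fold change was −0.21 with 6 of 15 above 0, beside 50.5% of all genes. Both cer39 libraries were above both WT libraries for 3 genes and below for 6, beside 32.6% and 29.4% of all genes.

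spe-44 came closest, with 72.3 and 78.6 normalized counts in WT and 40.8 and 34.9 in cer39. The groups did not overlap, and the log2 fold change was −0.98 (SE 0.225, adjusted p = 0.0606 by limma and 0.0288 by DESeq2, which called 8.45% of all genes downward). spe-4 had 31.4 and 49.8 in WT and 66.2 and 74.2 in cer39, and spe-9 had 11.4 and 22.1 in WT and 5.4 and 6.3 in cer39. spe-10, under the minimum for testing, had 5.7 and 2.2 in WT, 21.6 and 17 in cer39 and 7.3 and 4.6 in cer6.

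In cer6, spe-11 and spe-26 rose and spe-39 and spe-44 fell. These 2 rises and 2 falls among 15 genes stood beside 2067 genes (13.8%) that rose and 2075 (13.8%) that fell among all 15011, shares near those of the sperm protein genes. The median log2 fold change was −0.10, with 7 of 15 above 0 beside 49.5% of all genes, and the groups did not overlap for 5 genes above and 5 below WT, beside 31.1% and 32.7% of all genes. Both comparisons at L2 use the same WT libraries.

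spe-11, on chromosome I from 5330578 to 5332169, had 12.4 and 5.5 normalized counts in WT, 1.5 and 0.9 in cer39 and 193 and 55.6 in cer6. Both cer6 libraries were above the other 4, and replicate 1 was the higher of them, while both cer39 libraries were the lowest. spe-11 met the minimum for testing only through cer6, with means of 8.95 in WT, 1.2 in cer39 and 124 in cer6. The comparison of cer39 with WT thus rested on group means under that minimum. The log2 fold change in cer6 was 3.49 (SE 0.706, adjusted p = 0.0195, limma) and that in cer39 −2.09 (SE 0.706, adjusted p = 0.126, limma). The cer6 value was 2.60 without cer6 replicate 1 and 4.38 without cer6 replicate 2, the ends of its range over all libraries left out in turn. In reads, cer6 had 261 and WT 18, a ratio of 14.4 after scaling (exact 95% interval 8.94 to 24.7, counting error only).

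spe-26, on chromosome IV from 10389578 to 10391927, had 7.6 and 8.8 normalized counts in WT, 16.9 and 21.4 in cer39 and 19.1 and 22 in cer6. Both mutants lay above WT, by log2 fold changes of 1.12 in cer39 (SE 0.325, adjusted p = 0.0957, limma) and 1.22 in cer6 (SE 0.325, adjusted p = 0.0425, limma). The difference between cer6 and cer39, a contrast in which 19.6% of all genes passed the threshold, was 0.10 on the log2 scale (SE 0.325, adjusted p = 0.855, limma).

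spe-39, on chromosome V from 6785451 to 6787864, is a gene for vesicle trafficking that is also used outside the germ line. It had 995 and 1079 normalized counts in WT, 901 and 885 in cer39 and 699.8 and 724 in cer6. The 3 groups did not overlap and cer6 was the lowest, with log2 fold changes of −0.54 in cer6 (SE 0.109, adjusted p = 0.0191, limma) and −0.21 in cer39 (adjusted p = 0.252, limma). spe-44, on chromosome IV from 12452063 to 12454215, had 39 and 42.8 in cer6, close to the cer39 values and below the 72.3 and 78.6 of WT (log2 fold change −0.87, SE 0.225, adjusted p = 0.0395, limma).

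These calls depended on single libraries. Without WT replicate 2, or without cer6 replicate 1, 0 of the 15 genes passed the threshold, beside 22.7% and 12.7% of all genes, with adjusted p of 0.0529 and 0.0818 for spe-11 (limma). In these 2 fits the log2 fold changes kept their directions, at 2.97 and 2.60 for spe-11, 1.32 and 1.32 for spe-26, −0.48 and −0.52 for spe-39 and −0.81 and −0.80 for spe-44. Without cer6 replicate 2 or either cer39 library spe-11 alone passed, beside 13%, 16.3% and 16.4% of all genes, and without WT replicate 1 spe-11 and nspd-7 rose and spe-39 fell, beside 26.5%. In each of these fits a group was left with 1 library, assumed to vary like the other groups. edgeR called the same 4 genes with TMM and with RLE scaling, beside 27.4% and 27.5% of all genes, and DESeq2 called spe-11, spe-39 and spe-44, beside 32.7%, with an adjusted p of 0.105 for spe-26.

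The other L2 genes differed from WT within the spread of the replicates or missed the threshold. nspd-7 had 32.4 and 14.4 normalized counts in WT, 41.6 and 36.6 in cer39 and 38.1 and 67.2 in cer6. spe-42 had 10.5 and 29.9 in WT and 0.9 and 7 in cer6 (log2 fold change −2.27, SE 0.839, adjusted p = 0.101, limma). spe-6, spe-41, spe-46 and spe-47 had 9.2 to 34.3 normalized counts over all libraries, and both cer6 libraries lay below WT for spe-6 and spe-41. Of the genes with a spe- symbol only today, spe-18 (F32A11.3) was chosen after its values were seen. It had 2.86 and 5.53 normalized counts in WT, 7.7 and 8.94 in cer39 and 34.5 and 18.5 in cer6. The log2 fold change in cer6 was 2.39 (SE 0.487, adjusted p = 0.0199, limma), beside 13.8% of all genes that rose. The gene met the minimum of 10 only through cer6.

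The other sperm genes and the fate regulators at L2 are given for their number only. Of 5 other sperm genes tested, 1 fell in cer39 (alg-3, with 52.4 and 42.05 normalized counts in WT and 6.16 and 7.15 in cer39), beside 3.04% of all genes, and 0 passed in cer6. Of 21 fate regulators, 1 rose and 3 fell in cer39 (tra-1 upward, fog-3, fbf-1 and fbf-2 downward, named after their values were seen), beside 4.12% and 3.04% of all genes, and 4 rose and 6 fell in cer6, beside 13.8% each way. Germ line markers had medians of −0.95 in cer39, with 0 of 17 above 0, and −0.50 in cer6. Of these 17, 3 fell in cer39 and 5 in cer6, beside 3.04% and 13.8% of all genes, and 0 rose in either. Of 4 male markers tested, 1 rose in cer39 (cwp-4) and 2 rose in cer6 (cwp-4 and try-5), beside 4.12% and 13.8% of all genes. The summed normalized counts of the male markers were 168 and 180 in WT, 313 and 387 in cer39 and 449 and 332 in cer6. The part of these levels in the results for spe-44 and the other genes was not tested.

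Of the 15 sperm protein genes tested at L2, spe-48 was the 1 among the 389 genes in the deposited table of splicing events for cer6. For level, 15011 genes were tested at L2. Splicing events of the other alleles are not described here. The event was a skipped exon of 189 nucleotides on chromosome I from 1956865 to 1957053 (WBcel235). The reads that include it, as their lengths in the table show, cover its body as well as its junctions. In WT 616 and 511 reads included the exon and 3 and 1 skipped it, and in cer6 686 and 500 included it and 26 and 18 skipped it. The inclusion level, computed from these reads and the authors' lengths of both forms, was 0.983 and 0.993 in WT and 0.882 and 0.888 in cer6, a difference that chose the event and is given as a description. The total level of spe-48 was 1075 and 986 normalized counts in cer6 and 965 and 916 in WT (log2 fold change 0.13, SE 0.114, adjusted p = 0.447, limma).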

How the data were processed

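The deposited signal values are transcript counts that the authors normalized with DESeq2, after alignment with STAR to WBcel235.87 and quantification with RSEM (versions, and whether counting used strand, are not given in the sources used here). Nearly all values were multiples of what 1 read was worth, within 0.1 of a whole number. A table of splicing events also holds read counts and an inclusion fraction made by the authors with rMATS. The deposited comparison tables of the authors, with fold changes and p-values, were not used, and 1 L2 row with shifted cells was left out (F31C3.10).

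Values were summed per gene, a mean minimum of 10 was applied, and limma-trend (limma 3.58.1, R 4.3.3) was run on log2 values with a pseudocount of 1, the 4 L4 libraries alone and the 6 L2 libraries in a single fit. Fold changes on this scale understate the change of low genes. p-values were adjusted over all genes of a fit (Benjamini-Hochberg, threshold 0.05). edgeR 4.0.16 and DESeq2 1.42.0 on recovered reads were alternatives, with other pseudocounts (0.5 or 5), filters (50 or none), scaling without sperm genes, a replicate block and leaving out each library. Scaling without sperm genes set every library of a stage to the same total of protein-coding counts outside the sperm genes. It replaced the authors' scaling. On simulated data with at most 67 genes changed at each fold, limma recovered 35.8%, 67.2% and 89.4% of genes changed 1.5-fold, 2-fold and 4-fold for K718E. It recovered 0%, 7.5% and 75.8% for cer39, and 0%, 3.1% and 81.5% for cer6. The simulated fits called 143, 59 and 59 genes for K718E, cer39 and cer6, of which 15, 4 and 4 were unchanged. On the data limma called 63, 1074 and 4142 genes, so the recovered shares do not carry over to those tests.

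L4 numbers pair the samples, because the strain labels name the outcross (cer3 or cer7) of each WT library. The deviations of same-numbered L4 libraries correlated at −0.10 across genes. Named genes are the members called (up to 8 per direction), the 3 most abundant of each class at each stage, spe- genes of known role and up to 4 genes per other list with the smallest p in K718E. Values of 2 genes of known role are not reported here. The genes, the lists and this rule were chosen with earlier results of these data known. Coordinates and exons are from the Ensembl annotation of WBcel235, release 115. Python 3.11.15 with pandas 2.3.3, numpy 2.4.6, scipy 1.17.1 and matplotlib 3.10.9 did the rest.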

Additional observations from a re-analysis of the deposited data

Results flagged for a closer look

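spe-11 differed between the L2 mutants. Its normalized count was 193 and 55.6 in cer6 and 1.5 and 0.9 in cer39, a difference of 5.58 on the log2 scale (SE 0.706, adjusted p = 0.00908 in a limma contrast between the 2 mutants, beside 19.6% of all genes past the threshold in that contrast). cer39 held 3 reads of this gene in all and cer6 261, a ratio of 107 after scaling (exact 95% interval 36.2 to 522, counting error only). Both cer6 libraries were above both cer39 libraries. The gene met the minimum for testing only through cer6. Unlike cer6, the cer39 group was not passed through the sorter, and the part of sorting in this difference was not tested.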

How the results depend on the processing

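With 2 libraries per group, directions near 0 and counts of calls moved with the libraries kept. For K718E, upward calls among the sperm protein genes were 3 with DESeq2 and 1 with the replicate block, against 0. All genes called numbered 877 with DESeq2, 625 with the block, 217 with the block crossed (chosen after the data were seen, since same-numbered deviations correlated below −0.1), 40 without a filter and 36 after scaling without sperm genes, against 63. spe-5 was 0.0045 with DESeq2 and edgeR RLE, 0.0135 with edgeR TMM and 0.0132 after scaling without sperm genes, and spe-38 was 0.0014 with DESeq2 and that scaling, 0.0002 with RLE and 0.0087 with TMM. For cer39, DESeq2 called 1 sperm protein gene down and 2572 genes in all, the 4 libraries compared alone gave 410 and the block 536, against 1074. The median of the sperm protein genes was −0.0856 after scaling without sperm genes. That setting moved the median of all genes by 0.12 in cer39 and 0.13 in cer6. Because it scales to equal totals in place of the authors' scaling, its shifts are not those of leaving out sperm genes alone. For cer6, 1 sperm protein gene rose with DESeq2, with the 4 libraries alone and with the block. A minimum mean of 50 left 5 sperm protein genes, of which 0 rose. It removed spe-11 and spe-26, so their rises were not tested there. With the 4 libraries alone 0 fell, and after scaling without sperm genes 1 fell (spe-44 lost, adjusted p = 0.0679, limma), where spe-4 was 0.0274. The 4 libraries alone gave 2473 genes against 4142. The L2 replicate numbers share only a number (correlations −0.17, 0.12 and 0.04), and with them as a block spe-11, spe-39 and spe-42 were called in cer6. As a share of all values in the table, the sperm protein genes made up 0.4135% in WT at L4 and 0.0057%, 0.0049% and 0.0053% in WT, cer39 and cer6 at L2. Pseudocounts of 0.5 and 5 changed no sperm protein call in any comparison. Causes were not tested.

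Leaving out each library in turn, K718E calls among the sperm protein genes ranged from 0 to 24 upward and from 0 to 1 downward, all genes from 82 to 5173 and the median from 0.0461 to 0.1817. Log2 fold changes that changed sign ranged from −0.0163 to 0.1817 for msp-59, −0.0423 to 0.1728 for msp-51, −0.0937 to 0.1335 for msp-63, −0.0076 to 0.1424 for ssp-9, −0.0522 to 0.0756 for ssp-11, −0.1649 to 0.0504 for nspd-2, −0.0647 to 0.0904 for nspd-1, −0.1262 to 0.0645 for nspd-3, −0.1728 to 0.0226 for spe-39, −0.0289 to 0.0136 for spe-5, −0.1048 to 0.1138 for spe-27, −0.2986 to 0.6174 for spe-29, −0.1886 to 0.1505 for spe-38 and −0.0555 to 0.1855 for spe-46. In cer39 all genes called ranged from 0 to 1244 and the median from −0.2723 to −0.0713, with spe-48 at −0.0406 to 0.0745, spe-46 at −0.3349 to 0.5032 and spe-47 at −0.0727 to 0.7155. In cer6 the calls ranged from 0 to 2 upward and from 0 to 1 downward, all genes from 1891 to 3983 and the median from −0.2185 to 0.1371, with spe-4 at −0.5234 to 0.3242, spe-9 at −0.6933 to 0.2038, spe-46 at −0.2729 to 0.5254 and spe-47 at −0.0515 to 0.6949.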
